A study of Mus musculus with 52 samples.

Results

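The genes of mitosis and of the G2/M transition were described in RNA of Cilia-APEX-IMCD3 cells, a mouse kidney line of the inner medullary collecting duct that carries a reporter enzyme in its primary cilium. The members were a list of 54 gene symbols chosen by function, with earlier results of these data known. All 54 were found among the 24421 symbols of the count files. Cells were clones, each grown from 1 cell, that had gone through CRISPR base editing with the cytosine base editor BE4-Gam. Mutant clones were homozygous for a missense change in Wdr34 or Wdr60, the intermediate chains of the dynein-2 motor, and control clones had received the editor and a guide vector without a target. Ciliated cells comprised 4 control clones (A4, D8, G7 and H12) and 3 mutant clones (Wdr34-1, Wdr34-3 and Wdr60), and nonciliated cells comprised 4 control clones (1, 2, 3 and AB) and 2 mutant clones (Wdr34 and Wdr60). Each of these 13 combinations of clone and state, called a clone below, gave 4 technical replicate libraries, 52 in all. Sequencing of 4 control and 3 mutant clones is described in the study's methods, so a ciliated and a nonciliated clone may be the same cells in another medium. The labels do not link the states beyond the name Wdr60, so the tests between states treat the 13 as separate and take no account of such pairing. Cilia were induced in 0.2% serum for 50 h in place of 10%, per the study's methods, whereas the labels name 10% serum for every library. The study reports an unintended heterozygous synonymous change in the Wdr60 mutant, whose intended change is alanine to valine. Per the study, the Wdr34 mutant with a glycine-to-serine change, which also carries an unintended heterozygous glycine-to-aspartic acid change beside it, was made after the nonciliated libraries had been sequenced. Nonciliated Wdr34 therefore carries the other Wdr34 allele, an arginine-to-tryptophan change, while the labels do not say which of Wdr34-1 and Wdr34-3 carries which. The state and the time of sequencing cannot be told apart.

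Entry into mitosis is driven by Cdk1 bound to cyclin B, which polo-like and Aurora kinases help to switch on. The spindle checkpoint then holds the anaphase-promoting complex (APC/C) inactive until every kinetochore is attached, after which securin and the cyclins are destroyed, the chromatids part and the cell is cut apart. Most of these genes are transcribed together in G2 and are held down in resting cells by the DREAM complex, which binds a short promoter element, the CHR (cell cycle genes homology region). Many of their promoters also hold CCAAT boxes, the sites of the activator NF-Y. Primary cilia grow from the centriole in resting cells and are taken down before mitosis, and serum withdrawal is the usual way to obtain them in kidney lines. Several members, Aurka, Plk1 and Nek2 among them, are also known for roles in taking the cilium down.

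Promoter windows of 300 bases, 250 before and 50 after the annotated start, were listed by RefSeq (GRCm38.p6) for 44 of the 54 members. Aurkb, Bora, Ccna2, Cdc25c, Dlgap5, Foxm1, Incenp, Smc4, Spc24 and Tpx2 had no entry. The letters TTTGAA for the CHR and CCAAT for the CCAAT box were searched on both strands, where they read TTCAAA and ATTGG. Of the 44 member windows, the first listed for each gene, 29 (65.9%) held the CHR letters, against 18.1% of the windows of all 27025 genes. The CCAAT letters stood in 32 (72.7%) of the member windows against 37.9% of all, and both stood together in 27 (61.4%) against 7.12%. In 1 member window a match of one motif shared bases with a match of the other. Of the 38 CHR matches, 28 began within 50 bases of the start, and 71 of the 75 CCAAT matches began before it. These are matches of letters and not measured binding sites, and the list was chosen by function, so the shares describe the list and were not tested.

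The windows of the members on which the comparisons below turn are printed 5′ to 3′ on the strand of the gene, with CHR and CCAAT matches in capitals. Bub1 (chr2:127831810-127832109, minus strand), Aurka (chr2:172370521-172370820, minus), Hmmr (chr11:40733388-40733687, minus) and Ckap5 (chr2:91526512-91526811, plus) differed most between the states in control clones, and Nek2 (chr1:191821223-191821522, plus) was the member that differed in the other direction.
Bub1: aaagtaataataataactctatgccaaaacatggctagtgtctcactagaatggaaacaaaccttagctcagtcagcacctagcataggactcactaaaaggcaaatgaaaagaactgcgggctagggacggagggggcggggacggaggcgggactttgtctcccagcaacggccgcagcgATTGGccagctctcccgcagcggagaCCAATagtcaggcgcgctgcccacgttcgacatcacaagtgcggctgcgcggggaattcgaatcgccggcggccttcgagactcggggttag
Aurka: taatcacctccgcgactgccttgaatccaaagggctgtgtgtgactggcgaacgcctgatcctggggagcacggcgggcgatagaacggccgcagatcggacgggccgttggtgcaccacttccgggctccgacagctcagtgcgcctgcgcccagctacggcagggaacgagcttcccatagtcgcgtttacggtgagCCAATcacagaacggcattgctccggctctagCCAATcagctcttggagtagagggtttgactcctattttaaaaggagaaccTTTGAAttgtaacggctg
Hmmr: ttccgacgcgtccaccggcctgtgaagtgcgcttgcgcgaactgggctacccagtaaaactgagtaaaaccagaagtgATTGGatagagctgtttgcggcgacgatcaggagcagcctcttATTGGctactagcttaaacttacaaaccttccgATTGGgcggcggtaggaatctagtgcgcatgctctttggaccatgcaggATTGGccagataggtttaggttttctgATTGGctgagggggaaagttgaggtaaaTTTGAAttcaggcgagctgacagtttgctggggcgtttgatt
Ckap5: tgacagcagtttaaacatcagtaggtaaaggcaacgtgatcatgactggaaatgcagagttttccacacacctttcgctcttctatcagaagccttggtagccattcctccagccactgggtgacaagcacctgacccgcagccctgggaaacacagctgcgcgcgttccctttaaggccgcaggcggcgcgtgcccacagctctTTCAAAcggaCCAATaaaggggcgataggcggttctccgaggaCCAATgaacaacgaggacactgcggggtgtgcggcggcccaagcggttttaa
Nek2: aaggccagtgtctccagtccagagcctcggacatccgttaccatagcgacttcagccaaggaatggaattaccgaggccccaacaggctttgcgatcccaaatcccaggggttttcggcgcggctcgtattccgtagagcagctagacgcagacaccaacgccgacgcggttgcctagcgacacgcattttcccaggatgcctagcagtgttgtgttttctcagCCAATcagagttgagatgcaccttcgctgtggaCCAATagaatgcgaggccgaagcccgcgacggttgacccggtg
Cdk1 (chr10:69352863-69353162, minus) and Mki67 (chr7:135716330-135716629, minus) are landmarks whose levels did not pass the test, and Ccnb2 (chr9:70421505-70421804, minus) and Cenpa (chr5:30666636-30666935, plus) were among the 3 members nearest to a call between mutant and control clones in each state, though none was called.
Cdk1: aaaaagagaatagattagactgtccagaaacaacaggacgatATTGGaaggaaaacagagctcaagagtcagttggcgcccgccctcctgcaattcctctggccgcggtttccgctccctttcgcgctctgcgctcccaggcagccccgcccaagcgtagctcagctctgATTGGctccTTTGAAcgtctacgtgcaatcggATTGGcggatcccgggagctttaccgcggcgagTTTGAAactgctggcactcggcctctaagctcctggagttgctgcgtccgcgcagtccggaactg
Mki67: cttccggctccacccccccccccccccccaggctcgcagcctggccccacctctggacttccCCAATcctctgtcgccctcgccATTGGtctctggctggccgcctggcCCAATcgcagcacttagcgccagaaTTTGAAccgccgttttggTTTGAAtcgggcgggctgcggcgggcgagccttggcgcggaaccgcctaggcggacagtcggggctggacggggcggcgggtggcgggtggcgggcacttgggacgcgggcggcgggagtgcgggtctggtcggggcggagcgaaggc
Ccnb2: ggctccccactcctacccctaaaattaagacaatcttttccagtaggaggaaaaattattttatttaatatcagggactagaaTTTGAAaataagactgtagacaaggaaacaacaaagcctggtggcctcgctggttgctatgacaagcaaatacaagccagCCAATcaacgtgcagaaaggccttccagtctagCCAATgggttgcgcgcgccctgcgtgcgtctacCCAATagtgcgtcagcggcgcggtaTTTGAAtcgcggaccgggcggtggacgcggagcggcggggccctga
Cenpa: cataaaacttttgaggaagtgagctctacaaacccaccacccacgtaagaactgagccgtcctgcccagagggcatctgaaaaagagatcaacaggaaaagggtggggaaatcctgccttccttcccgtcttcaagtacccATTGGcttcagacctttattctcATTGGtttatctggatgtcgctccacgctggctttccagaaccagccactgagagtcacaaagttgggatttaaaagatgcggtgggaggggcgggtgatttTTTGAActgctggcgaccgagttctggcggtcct
Aurka, Hmmr, Ckap5, Cdk1, Mki67, Ccnb2 and Cenpa held both sets of letters, while Bub1 and Nek2 held 2 CCAAT matches each and neither TTTGAA nor TTCAAA. No other spelling of the CHR was searched, so a variant element in these windows would be missed. Of the 13 members with a window that fell in ciliated controls (below), 7 (53.8%) held both motifs, and of the 30 that were not called 20 (66.7%) did. The 2 kinds of letters were therefore found both in members that differed between the states and in members that were not called, and no test of this was made.

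Values are read counts scaled to library size by TMM (CPM), with the 4 libraries of a clone summed, so that the clone is the sample. Library totals ran from 14816218 to 28084979 counts (median 17414011.5) and clone totals from 64841603 to 77304019. No 2 of the 78 pairs of libraries from the same clone were identical, and their chi-square per degree of freedom ran from 2.02 to 109 (median 5.65). In each state 1 control clone stood apart in the sum of the epithelial markers of the collecting duct. These summed to 951 CPM in G7 against 3652 to 6617 CPM in the other ciliated controls, to 840 CPM in nonciliated control 2 against 3828 to 4786 CPM in the others, and to 1593 to 4977 CPM in ciliated and 3672 to 4551 CPM in nonciliated mutants, lowest in Wdr34-3. Epcam, an adhesion molecule of epithelia, had 13.5 CPM in G7 and 2.89 CPM in nonciliated control 2, against 184 to 836 CPM in every other clone. The listed markers Pax2, Pax8 and Hoxb7 went the other way, and both clones had the highest level among the controls of their state. They stood at 303, 414 and 84.9 CPM in G7 and at 277, 300 and 55.5 CPM in nonciliated control 2. Of these 14 markers 13 reached 1 CPM in some clone, while Aqp2, the water channel that defines principal cells, was below 1 CPM in every clone. Fibroblast markers summed to 31.3 CPM in Wdr34-3, of which Dcn made up 29.2 CPM, and to at most 5.52 CPM in the others, where Col1a1 was the highest of them except in G7 (Dcn, 0.959 CPM). Leukocyte markers summed to 0.960 to 5.35 CPM, nearly all of it Cd68, and endothelial markers to at most 0.141 CPM, while Pdgfrb, Thy1, Ptprc, Pecam1 and Cdh5 were below 1 CPM in every clone. The edited changes are missense, so the RNA level of Wdr34 or Wdr60 does not check the labels.

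Every member was well covered, with 97 to 22932 counts in a library, and all 54 passed the filter on low counts that left 13994 genes. Per kilobase of exon, Smc4, the core ATPase of condensin, was highest at a mean of 104 RPKM (CPM per kilobase of exon) over the 13 clones, followed by Top2a, the topoisomerase that untangles sister chromatids, at 96.8 RPKM. Cdkn3, a phosphatase of cyclin-dependent kinases, was lowest at 4.66 RPKM, and Ube2s, which elongates ubiquitin chains on APC/C substrates, stood at 5.83 RPKM. The median member stood at 32.5 RPKM.

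The summed level of the 54 members differed more between ciliated control clones than between nonciliated ones. It was 7585 CPM in A4, 7769 in D8, 10721 in G7 and 9240 in H12, and 11385, 10554, 10015 and 10910 CPM in nonciliated controls 1, 2, 3 and AB. G7 lay within the range of the nonciliated controls, and the other 3 ciliated controls lay below it. G7 was also the ciliated control with the lowest sum of epithelial markers, although Pax2, Pax8 and Hoxb7 were highest in it. Nonciliated control 2, whose marker sum was the lowest of its state (840 CPM), lay within the range of the other nonciliated controls in the members. The part of the marker levels in the level of the members was not tested. Relative to the mean of the other ciliated controls, 52 of 54 members were higher in G7, with a median log2 difference of 0.35, and 43 were higher in H12 (0.14), while 48 were lower in A4 (-0.26) and 45 lower in D8 (-0.25). In 42 members (77.8%) G7 was above every other ciliated control, against 32.4% of all genes tested, and over all genes the median log2 difference of G7 was -0.01. The median standard deviation (SD) of log2 CPM over the 4 clones was 0.25 for members in ciliated controls and 0.15 in nonciliated controls, against 0.27 and 0.23 for the 9273 genes within the members' range of CPM. Spc24 and Cenpe (0.65 each) and Spc25 (0.61) varied most in ciliated controls and Ube2c least (0.08), while Foxm1 (0.45) varied most in nonciliated controls and Knstrn least (0.04).

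**Figure D1:**
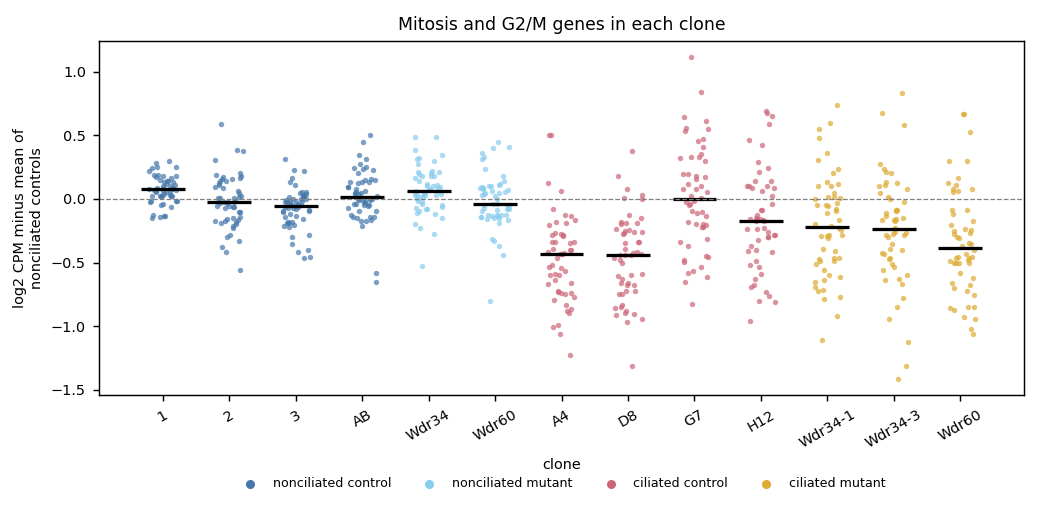
Each point is a member in a clone, as its log2 CPM minus the mean log2 CPM of the 4 nonciliated controls, and bars are medians over the 54 members. The medians of A4 and D8 lie at -0.43 and -0.44, that of H12 at -0.17 and those of the ciliated mutants between -0.39 and -0.22, whereas G7 lies with the nonciliated clones.

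Between the states of control clones, which asks how the programme differs in starved, ciliated cells, 14 of 54 members (25.9%) were lower in ciliated cells and 1 (1.85%), Nek2, was higher. Over all 13994 genes tested, 9.46% were lower and 8.98% higher (edgeR quasi-likelihood test, Benjamini-Hochberg adjusted p under 0.05). The median log2 fold change of the members was -0.29, against 0.02 for all genes, and 41 members had a negative value. Bub1, Aurka, Hmmr and Ckap5 fell most, to between 0.52-fold and 0.59-fold of the nonciliated level. The clones did not overlap in 16 members that were lower and 1 that was higher in ciliated controls, against 11.5% and 10.0% of all genes. In bulk RNA, fewer cells in G2 and mitosis and less RNA per such cell cannot be told apart.

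Among the spindle pole kinases, all 3 were called. Aurka, the Aurora kinase of the spindle pole, had 72.9, 69.4, 93.5 and 79.9 CPM in ciliated controls A4, D8, G7 and H12, and 154, 119, 132 and 139 CPM in nonciliated controls 1, 2, 3 and AB. Every ciliated clone lay below every nonciliated one. The log2 fold change was -0.79 ± 0.12 (SE), adjusted p = 0.00275. Plk1, the polo-like kinase of mitotic entry, fell from 160 ± 16.2 to 101 ± 13.5 CPM (SD over 4 clones), a log2 fold change of -0.66 ± 0.12 (SE; adjusted p = 0.00565). Nek2, which frees the linker between the centrosomes, was the exception in its direction. It had 157, 144, 126 and 179 CPM in ciliated controls against 113, 95.7, 115 and 122 CPM in nonciliated controls, and the groups did not overlap. Its log2 fold change was 0.44 ± 0.12 (adjusted p = 0.0291).

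In the spindle checkpoint, Bub1, the kinase that loads the checkpoint onto kinetochores, fell and had the largest change of any member. Its level was 93.8, 118, 124 and 126 CPM in ciliated controls A4, D8, G7 and H12, and 262, 196, 217 and 209 CPM in nonciliated controls 1, 2, 3 and AB. G7, whose summed level was that of a nonciliated clone, lay with the other ciliated clones in Bub1. The log2 fold change was -0.94 ± 0.13 (SE; adjusted p = 0.00229). Bub1b, Mad2l1 and Ttk, the other checkpoint members, had values of -0.42, -0.32 and -0.44 and were not called (adjusted p 0.0860 to 0.362).

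Of the 5 members of the APC/C and chromatid separation, both ubiquitin-conjugating enzymes of the complex fell. Ube2c went from 263 ± 42.2 to 163 ± 8.96 CPM (log2 fold change -0.69 ± 0.15, adjusted p = 0.0108). Ube2s went from 35.9 ± 4.06 to 23.7 ± 1.48 CPM (-0.60 ± 0.12, adjusted p = 0.00715). Cdc20, the activator of the complex, stood at 0.17 ± 0.20, separase (Espl1) at -0.32 ± 0.15 and securin (Pttg1) at -0.22 ± 0.11, and none of these 3 was called.

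Among the 11 entry regulators, Ccnb1 alone was called. Ccnb1, the main mitotic cyclin, had 73.1, 83.7, 92.5 and 82.0 CPM in ciliated controls and 120, 102, 101 and 102 CPM in nonciliated controls. The groups did not overlap, and the log2 fold change was -0.36 ± 0.11 (adjusted p = 0.0387). Cdk1, its kinase, had 205, 207, 291 and 212 CPM in A4, D8, G7 and H12 and 251, 272, 207 and 221 CPM in controls 1, 2, 3 and AB, so the groups overlapped across most of their range (-0.06 ± 0.14, adjusted p = 0.811). Foxm1, the transcription factor of the G2 programme, had 165, 233, 278 and 197 CPM against 225, 274, 275 and 141 CPM (-0.07 ± 0.24, adjusted p = 0.864). Ccnb2, the cyclin B of the Golgi, and Ccnf, a substrate receptor of a ubiquitin ligase, were among the 4 members with the smallest change. Ccnb2 had 75.8, 72.1, 109 and 95.6 CPM against 78.2, 80.7, 87.4 and 102 CPM (0.02 ± 0.20). Ccnf had 109, 90.2, 111 and 104 CPM against 105, 112, 93.6 and 90.2 CPM (0.05 ± 0.13). Cdc25b, the phosphatase that starts Cdk1 activation, stood at 0.45 ± 0.15 and just missed the threshold (adjusted p = 0.0550), while Cdc25c stood at -0.21 ± 0.20. Ccna2, Melk, Bora and Cdkn3 stood at -0.35, -0.28, -0.17 and 0.17, none called. Cdkn3 had 7.07 to 14.6 CPM in ciliated and 7.59 to 13.2 CPM in nonciliated controls.

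In the centromere and kinetochore group, 1 of 8 members fell. Nuf2, a subunit of the Ndc80 complex that grips microtubules, went from 102 ± 18.5 to 67.2 ± 7.11 CPM (log2 fold change -0.60 ± 0.14, adjusted p = 0.0142). Ndc80, its partner in the same complex, had 87.7, 92.7, 139 and 119 CPM in ciliated and 114, 106, 113 and 111 CPM in nonciliated controls (-0.02 ± 0.14, adjusted p = 0.942). Spc24 and Spc25, the remaining subunits of that complex, stood at 0.28 ± 0.29 and 0.36 ± 0.31. The 4 subunits of the complex thus gave values from -0.60 to 0.36, and only Nuf2 was called. Cenpe and Cenpf, the motor and the large coiled-coil protein of the outer kinetochore, stood at -0.52 ± 0.28 and -0.45 ± 0.18, Knstrn at -0.14 ± 0.14 and Cenpa, the centromeric histone, at -0.11 ± 0.11, none called.

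In the chromosomal passenger complex, Birc5 (survivin) fell from 152 ± 12.8 to 112 ± 19.3 CPM (-0.44 ± 0.14, adjusted p = 0.0475). Cdca8 (borealin) stood at -0.48 ± 0.16 (adjusted p = 0.0560), and the kinase Aurkb at 0.23 ± 0.13 (adjusted p = 0.226). Incenp, the scaffold of the complex, had 242, 300, 284 and 249 CPM in ciliated and 254, 289, 285 and 235 CPM in nonciliated controls, a log2 fold change of 0.02 ± 0.11. Among the 6 chromosome structure genes, Ncapg, a subunit of condensin I, fell from 176 ± 31.3 to 113 ± 17 CPM (-0.63 ± 0.15, adjusted p = 0.0154). Top2a had 644, 744, 877 and 769 CPM against 1108, 1009, 929 and 1061 CPM and fell without overlap (-0.44 ± 0.13, adjusted p = 0.0396). Smc4 had 411, 392, 700 and 634 CPM against 580, 603, 397 and 649 CPM (-0.06 ± 0.25), and Smc2 and Ncaph, further condensin subunits, stood at -0.19 and 0.07. Mki67, which coats mitotic chromosomes and is the usual marker of proliferation, had 363, 364, 629 and 407 CPM against 508, 512, 419 and 411 CPM (-0.07 ± 0.18, adjusted p = 0.818). G7 had the highest Mki67 of all 13 clones.

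Of the 9 spindle assembly genes, 3 fell. Hmmr, which organizes microtubules at the spindle pole, had 89.0, 101, 136 and 112 CPM in ciliated controls and 209, 158, 177 and 203 CPM in nonciliated controls (-0.77 ± 0.14, adjusted p = 0.00579). Ckap5, a microtubule polymerase that is also used outside mitosis, had 226, 263, 280 and 213 CPM against 432, 372, 432 and 428 CPM (-0.76 ± 0.11, adjusted p = 0.00245). In both genes every ciliated clone lay below every nonciliated one. Tpx2, the activator of Aurka, fell from 350 ± 14.5 to 231 ± 50.1 CPM (-0.60 ± 0.14, adjusted p = 0.0134). Aspm, Ckap2, Ckap2l, Tacc3 and Dlgap5 stood between -0.45 and -0.24 and Nusap1 at 0.11, none called, although the clones of Tacc3 did not overlap. Among the 4 cytokinesis genes, Anln (anillin), the scaffold of the contractile ring, fell from 363 ± 33.8 to 242 ± 32.7 CPM (-0.58 ± 0.13, adjusted p = 0.0138). Ect2, the exchange factor that starts furrowing, stood at -0.64 ± 0.21 and just missed the threshold (adjusted p = 0.0510), though its clones did not overlap, while Prc1 and Racgap1 of the central spindle stood at -0.14 and 0.09.

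**Figure D2:**
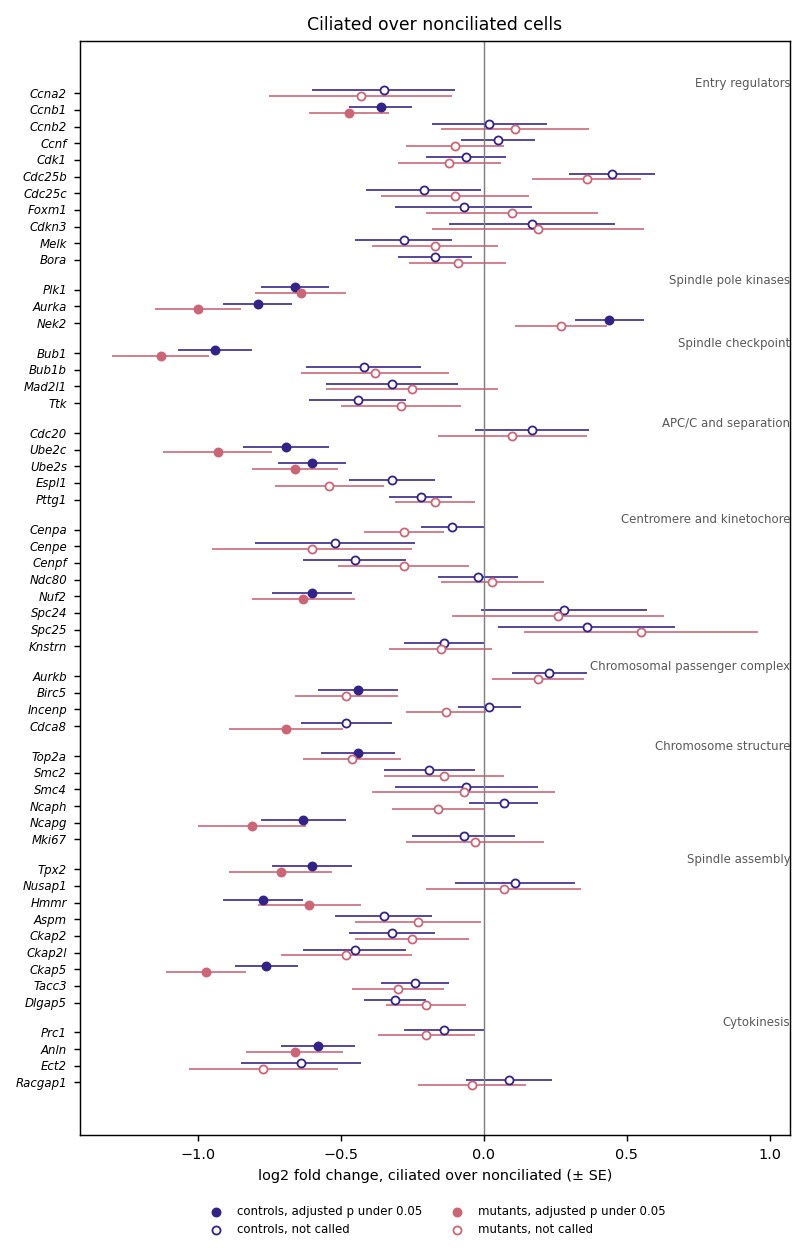
Log2 fold change of ciliated over nonciliated cells for each of the 54 members by role, with bars of 1 SE, in control clones (4 against 4) and mutant clones (3 against 2), where filled points passed an adjusted p under 0.05. Bub1 and Aurka lie farthest to the left in both genotypes, followed by Hmmr in controls and Ckap5 in mutants, and Nek2 is the filled point to the right of 0.

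Of the 14 members lower in ciliated controls, 9 were called in all 24 alternative fits of this comparison (Bub1, Aurka, Plk1, Ube2c, Hmmr, Ckap5, Tpx2, Ncapg and Anln). Birc5, Ccnb1 and Top2a were called in 9, 12 and 12 of the 24. Nek2, the member called higher, was called in 18 of the 24 and was lost when A4, H12, nonciliated control 1, 2 or 3, or replicate number 4 was left out. Leaving out G7 gave 19 lower members (35.2%, against 8.96% of all genes), leaving out nonciliated control 2 gave 16 (29.6% against 11.3%), and leaving out nonciliated control 1 gave 10 (18.5% against 4.64%).

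In mutant clones, 13 of 54 members (24.1%) were lower in ciliated than in nonciliated cells and 0 were higher, against 7.53% and 5.32% of all genes. The median log2 fold change of the members was -0.24, against 0.04 for all genes. No clone is common to the comparisons in controls and in mutants, which are both between cells of different state and sequencing. Of the lower members, 12 were called in both genotypes, which is 12 of 14 in controls and 12 of 13 in mutants, and 48 of 54 members (88.9%) had the same sign. Over all genes tested the shares were 66.3% of those lower in controls, 83.3% of those lower in mutants and 84.9% with the same sign, so the sign shared by the members is near the background. Bub1 fell by 1.13 on the log2 scale (SE 0.17, adjusted p = 0.00516), with 102, 82.5 and 105 CPM in ciliated Wdr34-1, Wdr34-3 and Wdr60 and 222 and 199 CPM in nonciliated Wdr34 and Wdr60. Aurka fell by 1.0 (SE 0.15, adjusted p = 0.00517), with 82.1, 70.4 and 71.1 CPM against 152 and 146 CPM. Ckap5 fell by 0.97 (SE 0.14, adjusted p = 0.00516) and Ube2c by 0.93 (SE 0.19, adjusted p = 0.0131). In these genes every ciliated mutant clone lay below both nonciliated ones. Such separation was common in mutants. Of all 13994 genes tested, 3754 were lower and 3557 higher in ciliated mutants without overlap, and of the 54 members 26 and 3 were. Cdca8 fell by 0.69 (SE 0.20, adjusted p = 0.0450) and was called in mutants only, while Birc5, Top2a and Nek2 were called in controls only. Over the 24 alternative fits, Cdca8 was called in 13 in mutants and in 9 in controls. No test showed that these 4 genes differed between the genotypes (adjusted p = 1 for each interaction of genotype and state). Without nonciliated Wdr34, which leaves Wdr60 alone in its group, 0 members were called, and the calls over all genes went from 12.9% to 0.213%, so the loss was general. Lower members numbered 4 without nonciliated Wdr60 (7.41%, against 2.84% of all genes), 4 without ciliated Wdr34-1 (7.41% against 3.4%), 5 without ciliated Wdr60 (9.26% against 4.47%) and 7 without replicate number 1 (against 5.88% of all genes).

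**Figure D3:**
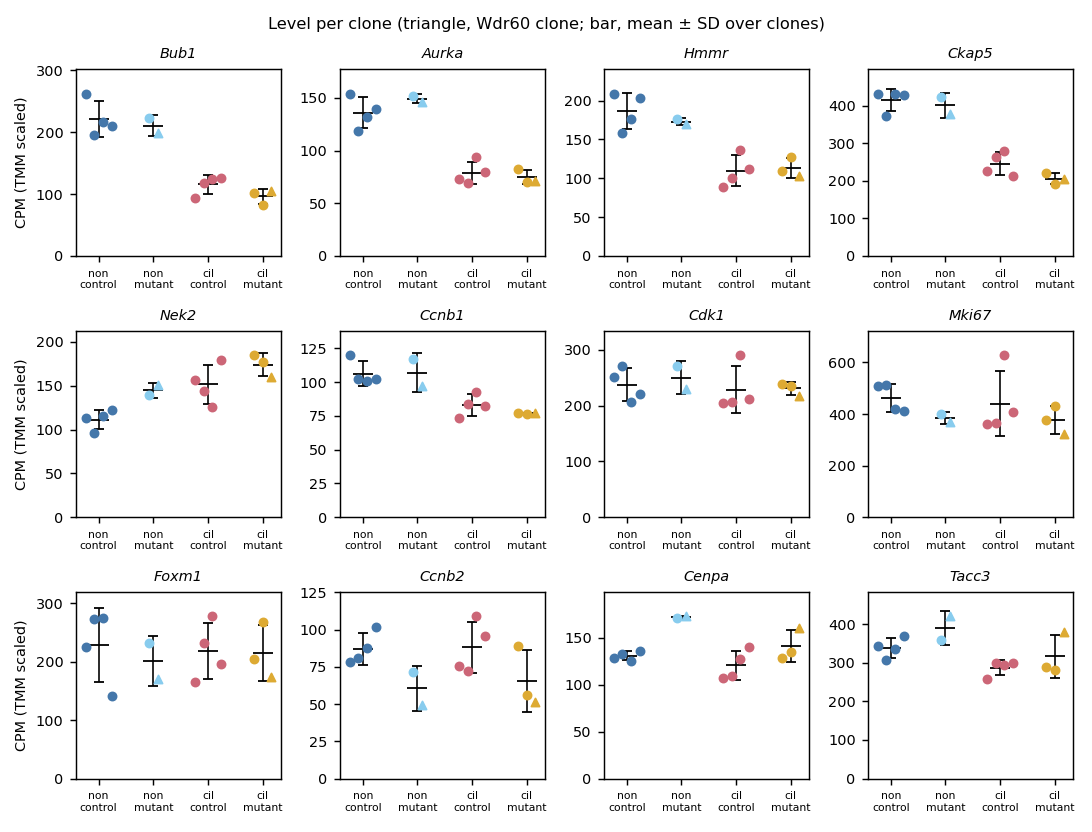
CPM per clone of 12 members in nonciliated (non) and ciliated (cil) control and mutant clones, from 0 on each axis, with the mean ± SD over clones and triangles for Wdr60. Bub1, Aurka, Hmmr and Ckap5 separate the states, Cdk1, Mki67 and Foxm1 overlap, and Ccnb2 is lowest and Tacc3 highest in Wdr60 in each state.

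The members were compared with other genes of the cell cycle on the same contrast in controls. Of all genes tested 18.4% were called in either direction, and of the members 27.8%. Of 43 further mitotic genes tested, 5 fell and 2 rose (16.3%), with a median log2 fold change of -0.07. The shares of this list, of DNA replication genes (21.4%) and of the regulators below (21.4%) were near that of all genes, so the genes named from them are a description and no result about the lists. Those that fell were Kif20a (-0.78 ± 0.19) and Kif23 (-0.66 ± 0.15), motors of the central spindle, Gtse1 (-0.59 ± 0.17), Kif18a (-0.46 ± 0.14) and Cdca2 (-0.42 ± 0.12). Those that rose were Wee1 and Pkmyt1, the kinases that hold Cdk1 inactive. Wee1 had 74.4 to 91.7 CPM in ciliated and 40.2 to 51.0 CPM in nonciliated controls (0.99 ± 0.12, adjusted p = 0.00135), and Pkmyt1 had 87.3 to 145 against 46.6 to 75.2 CPM (0.97 ± 0.21, adjusted p = 0.00974). Of 28 DNA replication genes, 4 rose (Cdt1, E2f1, Lig1 and Mcm6, log2 fold change 0.50 to 0.90) and 2 fell (Rrm1 and Rrm2, subunits of ribonucleotide reductase, -0.59 and -0.52), with a median of 0.06.

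Of 14 regulators of the programme, 1 rose and 2 fell. Lin37, a subunit of the MuvB core, rose (0.68 ± 0.14, adjusted p = 0.00926). E2f4, the main E2F of the DREAM complex, fell (-0.51 ± 0.16, adjusted p = 0.0420), as did Nfyb, a subunit of the CCAAT-binding factor (-0.44 ± 0.13, adjusted p = 0.0313). Mybl2 (B-Myb) stood at -0.13 ± 0.17. Of 9 CDK inhibitors and growth arrest genes tested of 11 listed, 4 rose and 1 fell (55.6%). Cdkn1b (p27), with 182 to 387 CPM in ciliated against 75.5 to 168 CPM in nonciliated controls, rose by 1.12 ± 0.29 (log2, adjusted p = 0.0225). Ccng2 (1.07 ± 0.28), Btg1 (0.94 ± 0.17) and Gas2 (0.86 ± 0.18) rose too, and Ccng1, a target of p53, fell (-1.56 ± 0.32). Cdkn1a (p21) ranged from 65.6 to 442 CPM in ciliated and from 26.7 to 261 CPM in nonciliated controls and was not called (1.30 ± 0.66, adjusted p = 0.190).

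**Figure D4:**
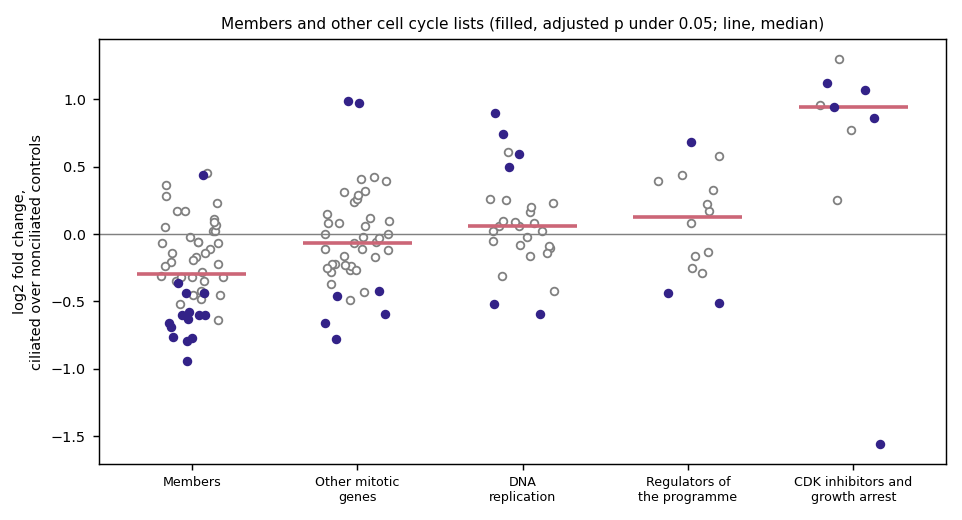
Log2 fold change of ciliated over nonciliated control clones for the 54 members and 4 other lists, with a point for each gene, filled where adjusted p was under 0.05, and a line at each median. The medians are -0.29 for the members, -0.07 for other mitotic genes, 0.06 for DNA replication, 0.12 for regulators and 0.94 for CDK inhibitors and growth arrest genes.

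Between mutant and control clones, which asks whether the Wdr34 and Wdr60 changes alter the programme, no member was called in either state. In ciliated cells (3 mutant against 4 control clones) 0 of 54 members and 0% of all genes passed, and 0 members and 272 of all genes had an unadjusted p under 0.05. In nonciliated cells (2 against 4 clones) 0 members and 0% of all genes passed, with 2 members and 516 of all genes at an unadjusted p under 0.05. The interaction of genotype and state, by which a mutant effect would differ between states, was called for 0 members and for 0% of all genes, with 0 members and 136 of all genes at an unadjusted p under 0.05. The median log2 fold change of the members was 0.01 in nonciliated cells, with a median SE of 0.18, and 28 of 54 were positive in ciliated cells, with a median SE of 0.16. DESeq2 on the same sums called 0 members in these 3 comparisons, whereas edgeR with each technical library as a sample called 5 members (9.26%) in ciliated and 4 (7.41%) in nonciliated cells, against 6.57% and 10.5% of all genes in the same fit, which is near the background. The clones did not overlap in 0 members in ciliated cells, against 1.29% of all genes higher and 0.807% lower, and in 3 higher and 3 lower members in nonciliated cells, against 7.76% and 6.32%.

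The members nearest to a call in ciliated cells were Ckap5, Ccnb2 and Cenpa. Ckap5 had 220, 191 and 204 CPM in Wdr34-1, Wdr34-3 and Wdr60, of which the latter 2 lay below all controls (213 to 280 CPM), a log2 fold change of -0.26 ± 0.12 (adjusted p = 1). Ccnb2 had 89.2, 55.9 and 51.4 CPM in the same clones against 72.1 to 109 CPM in controls (-0.43 ± 0.22). Cenpa had 128, 135 and 161 CPM against 107 to 140 CPM (0.23 ± 0.12). In nonciliated cells they were Cenpa, Nek2 and Ccnb2. Cenpa had 171 and 173 CPM in Wdr34 and Wdr60 against 125 to 136 CPM in controls (0.40 ± 0.14, adjusted p = 1). Nek2 had 139 and 151 CPM against 95.7 to 122 CPM (0.38 ± 0.15), and Ccnb2 had 71.4 and 49.7 CPM against 78.2 to 102 CPM (-0.52 ± 0.26). In these 3 genes both mutant clones lay outside the range of the controls. For the same interaction, Ncaph, Ckap5 and Aurka had values of -0.23 ± 0.20, -0.20 ± 0.18 and -0.22 ± 0.20 (adjusted p = 1).

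**Figure D5:**
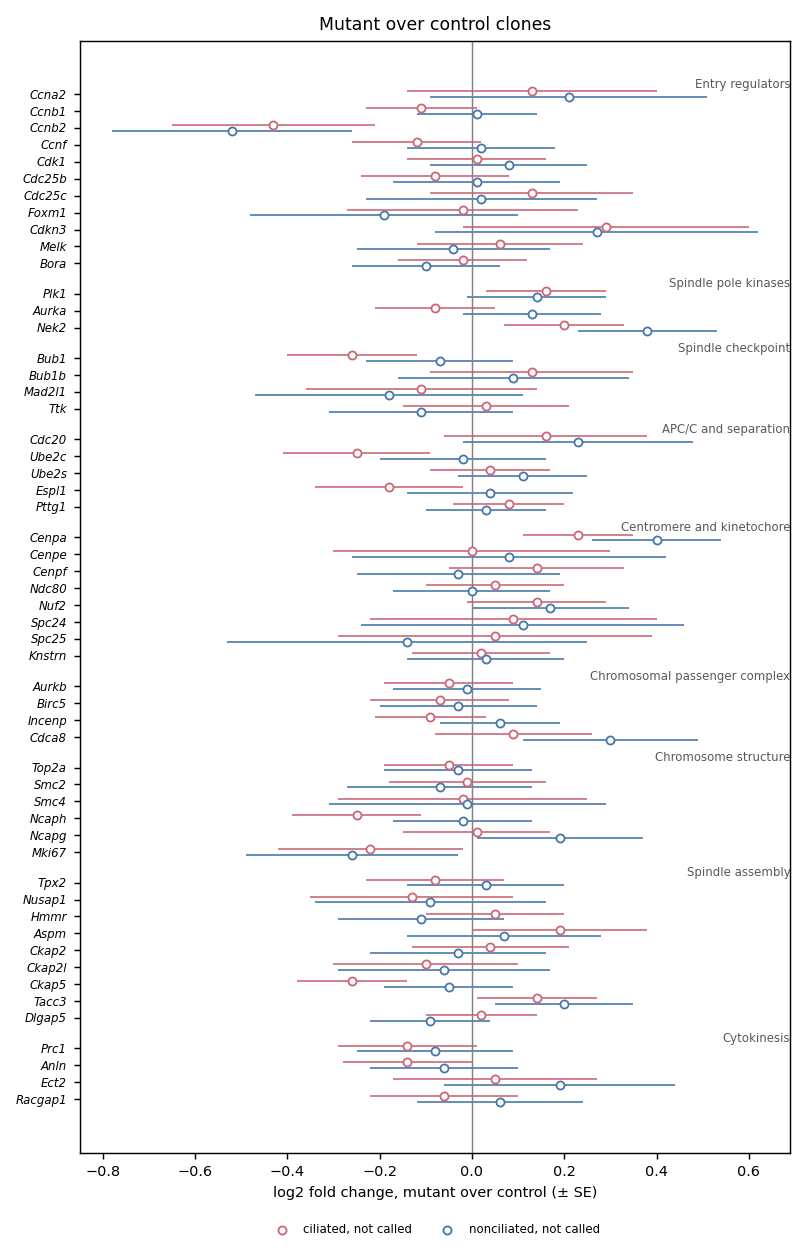
Log2 fold change of mutant over control clones for each of the 54 members by role, with bars of 1 SE, in ciliated cells (3 against 4 clones) and nonciliated cells (2 against 4). All points are open since none passed an adjusted p under 0.05, and Ccnb2 lies lowest in nonciliated cells at -0.52, with -0.43 in ciliated cells.

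Each mutant clone was also set against the 4 controls of its state, with the lone clone assumed to vary like the control clones. No member was called in any of the 5 clones. Over all genes 0.00715% were called in ciliated Wdr34-3 and 0% in ciliated Wdr34-1, ciliated Wdr60, nonciliated Wdr34 and nonciliated Wdr60. Ccnb2 was the member nearest to a call in Wdr60 in both states, at -0.78 ± 0.27 (SE) in ciliated and -0.81 ± 0.27 in nonciliated cells (adjusted p = 1 for both), which is 0.58-fold and 0.57-fold of the controls. It was below every control of its state in 4 of the 5 mutant clones, the exception being ciliated Wdr34-1. Tacc3, which carries Ckap5 to spindle microtubules, had 379 and 420 CPM in ciliated and nonciliated Wdr60 against 257 to 300 and 307 to 370 CPM in the controls (0.40 ± 0.17 and 0.31 ± 0.17). Cenpa was above every control in Wdr60 in both states and in nonciliated Wdr34 (0.39 ± 0.18). In Wdr34-3, Ube2c had 105 CPM against 150 to 170 CPM in ciliated controls (-0.63 ± 0.22, adjusted p = 0.777), and in Wdr34-1, Aspm had 150 CPM against 85.0 to 128 CPM (0.44 ± 0.28, adjusted p = 1).

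The summed level of the 54 members in mutant clones was 8992 CPM in Wdr34-1, 8969 in Wdr34-3 and 8032 in Wdr60 in ciliated cells, all within the range of the ciliated controls, and 11349 CPM in Wdr34 and 10321 in Wdr60 in nonciliated cells, within the range of the nonciliated controls. Single members lay above every control of their state in 13% (Wdr34-1), 13% (Wdr34-3) and 7.41% (Wdr60) of cases in ciliated mutants, against 12.3%, 19.4% and 16.7% of all genes, and below every control in 3.70%, 13% and 24.1%, against 11%, 16.2% and 13.7%. In nonciliated Wdr34 and Wdr60 they lay above in 24.1% and 13%, against 18.7% and 20.9% of all genes, and below in 13% and 9.26%, against 16.8% and 16%. The members' share exceeded that of all genes in only 3 of these counts: above the controls in Wdr34-1, below them in ciliated Wdr60 and above them in nonciliated Wdr34. The study describes a single Wdr60 mutant, so Wdr60 would be 1 clone in both states, which the labels do not state. In it 44 of 54 members were lower in ciliated than in nonciliated cells, with a median log2 ratio of -0.29 against -0.01 for all genes, a comparison of 1 sample a state without a test. The libraries of Wdr60 in both states were more uneven than those of most others. The median coefficient of variation of a member over the 4 libraries was 15.1% in ciliated Wdr60, the highest of the 13 clones, and 3.45% in the lowest, nonciliated control 2, with a median of 5.45% over all clones and members. Between control clones the median was 18.1% in ciliated and 10.6% in nonciliated cells.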

How the data were processed

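The 52 RNA libraries came from 13 combinations of clone and state of Cilia-APEX-IMCD3 cells. The authors aligned reads to GRCm38/mm10 with Rsubread in R v3.4.4 and deposited raw counts per gene symbol from featureCounts, without normalization; strand setting and handling of reads that fit several genes are not given in the sources used here, so near-identical copies and overlapping genes are uncertain. DESeq2 v1.18.1 was the authors' test.

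Clone and state were taken from the sample labels. Counts of the 4 technical libraries were summed per clone and fitted in R 4.3.3 with edgeR 4.0.16 (filterByExpr, TMM, glmQLFit, glmQLFTest, 2-sided), in a fit of 4 groups and another with each mutant clone as its own group. Adjustment was Benjamini-Hochberg over 13994 genes, with calls at an adjusted p under 0.05, and an SE is the log2 fold change divided by the square root of F. Each p of these fits sets a group difference against the spread between clones within groups, estimated jointly over the groups. A lone mutant clone adds no spread of its own. RPKM used GENCODE vM21 exon lengths. Alternatives used limma 3.58.1 and DESeq2 1.42.0.

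The members and lists were chosen with earlier results of these data known. Named with full values were the 4 largest and 4 smallest state changes in controls, the 2 highest and 2 lowest RPKM, the members called or nearest to a call in each mutant comparison, and Cdk1, Ccnb1, Mki67 and Foxm1; further members were named by role. Splits of clones, gene set tests, imaging and proteomics were not used here.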

Additional observations from a re-analysis of the deposited data

Results flagged for a closer look

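In 57 groups of 4 values (the control clones of a state for 21 named members and for the members' sum, and the 4 libraries of each clone for that sum), 6 held a value far from the other 3. Chance gives about 1 in 20 groups. In ciliated controls, G7 had 291 CPM of Cdk1, against 205 to 212 CPM in the other 3. In nonciliated controls, clone 2 stood below the rest in Ckap5 (372 CPM, against 428 to 432) and Aspm (105 CPM, against 154 to 155) and above them in Ncaph (186 CPM, against 163 to 164), and clone 1 stood above them in Ccnb1 (120 CPM, against 101 to 102). In the nonciliated Wdr60 clone, library 1 had 12264 CPM of members in all, against 9572 to 9738 CPM in the other 3 libraries. Leaving out replicate number 1 in all clones left each comparison of mutants with controls at 0 calls of members, and took the members lower between states from 13 to 7 in mutant clones (5.88% of all genes, against 7.53%) and from 14 to 13 in control clones. What set these values apart was not tested.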

How the results depend on the processing

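The members' median log2 fold change between states stayed negative in every fit. Over fits that left out a clone or a replicate number it ran from -0.39 to -0.22 in controls and from -0.28 to -0.18 in mutants, with 10 to 19 members lower and 0 to 2 higher in controls and 0 to 13 lower and 0 higher in mutants, while every mutant comparison stayed at 0 calls. Over the same fits 4.64% to 11.3% of all genes were lower in controls, against 18.5% to 35.2% of members, and 0.192% to 9.27% in mutants, against 0% to 24.1%. The labels do not link the clones of the 2 states, so no fit paired by clone was made. With each technical library as a sample, edgeR called 30 members lower and 4 higher between states in controls, 25 lower and 4 higher in mutants, and, against controls, 5 in ciliated mutants, 4 in nonciliated mutants, 14 in Wdr34-3, 7 in ciliated Wdr60, 3 in nonciliated Wdr34 and 5 in nonciliated Wdr60. Of all genes this fit called 30% lower and 31.8% higher in controls, 29.0% and 31.4% in mutants, and 6.57%, 10.5%, 26.8%, 14.7%, 11.5% and 13.8% in the mutant comparisons, where the members' shares were 9.26%, 7.41%, 25.9%, 13%, 5.56% and 9.26%. With the replicate number as a block as well, the counts were 30, 4, 25 and 4, then 4, 3, 14, 7, 2 and 5, and 0 for the difference between states and for Wdr34-1. Of all genes the blocked fit called 29.6% lower and 31.1% higher in controls and 28.7% and 30.7% in mutants. In the same mutant comparisons it called 5.19%, 9.1%, 25.4%, 12.9%, 10.2% and 12.3% of all genes. The members' shares there were 7.41%, 5.56%, 25.9%, 13%, 3.70% and 9.26%, which is near the background or below it. These libraries are technical, so their spread is not that between clones. The numbers do not pair the libraries: over 144 same-numbered pairs of libraries from clones of 1 state, deviations from the clone mean correlated at a median of 0.01 (-0.37 to 0.69). With libraries as samples and the clone as a block, voomLmFit called 2 members (3.70%) higher and 27.8% of the 54 lower in controls, against 13% and 14.0% of all genes, and DESeq2 on clone sums called 2 higher and 31.5% lower, against 13.2% and 12.8%. An adjusted p under 0.01 left 6 lower (11.1%, against 3.31% of all genes) and 0 higher (2.48%) in controls and 3 lower (5.56% against 1.27%) in mutants. Requiring a log2 change of 1 or more left 0 lower and 0 higher in controls (2.55% and 3.67% of all genes) and 2 lower in mutants (3.70% against 3.19%). With 2 to 4 clones a group the members' median SE was 0.15 to 0.19, against 0.24 for the interaction and 0.24 to 0.25 for single mutant clones, and small differences were not detectable.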
